A study of Oryza sativa Japonica Group with 9 samples.

Results

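The fertilized egg cell of rice at about 1 hour after pollination (hap) was set between the stages on either side of it, the unfertilized egg cell and the zygote at about 3 hap. It is represented by 3 arrays of the 9 in the series, those titled as fertilized egg cells, against 6 flanking arrays. A stage that stands between others can carry transcripts that are high or low only there, and the comparison asks which transcripts these are. On the RefSeq gene table, 15342 rice genes are covered by the 28597 probe sets (the array's unit of measurement, a group of short probes for 1 transcript) that were bright enough to be used, of 57194 rice probe sets on the array.

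All 3 groups are wild type Oryza sativa ssp. japonica, cultivar Katy, grown in a greenhouse, and the later stages were pollinated in the plant. The egg cells were taken at anthesis (0 hap), the fertilized egg cells between 1 and 1.5 hap, and the zygotes between 2.5 and 3 hap. Each array holds RNA of about 100 cells dissected from ovules without enzymes, about 2.5 ng by the submitters' estimate, which was amplified over 2 rounds of cDNA synthesis before labelling. An array therefore reports a pool, in which fewer cells with a transcript and less of it per cell cannot be told apart. The titles call the arrays of a stage biological replicates, while a protocol text calls each a biological technical replicate, so the spread between them may be partly technical.

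At anthesis a grass floret opens and pollen lands on the stigma. The pollen tube then grows through the style to the embryo sac, where 1 sperm cell fuses with the egg cell (plasmogamy) and its nucleus then joins the egg nucleus (karyogamy). The zygote reorganizes its cytoskeleton, builds a wall and begins to transcribe its own genome before it divides. Calcium signals accompany gamete fusion in flowering plants, and jasmonates, heat shock proteins and redox enzymes are widely used by plant cells in response to wounding and stress.

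Before the results, the arrays themselves differed. The second zygote array stood apart, with a median Spearman correlation of 0.578 to the other arrays, against 0.749 to 0.823 for the rest. Within stages the correlations were 0.855 to 0.880 for egg cells, 0.758 to 0.827 at 1 hap and 0.568 to 0.734 for zygotes, so the flanking zygote stage was the noisiest. None of the 5 array controls passed a test of 1 hap against the other 6 arrays (all adjusted p 0.357 or above). That test cannot see a trend over the stages. The log2 median rice signal averaged 5.37 in egg cells, 6.05 at 1 hap and 6.73 in zygotes (7.77 in the second zygote array). The log2 hybridization spike signal averaged 12.2, 13.6 and 15.5 in the same order. Against the egg cells alone, 2 controls did not overlap: the log2 ratio of poly-A over hybridization spikes was -2.10 to -0.788 at 1 hap and -4.26 to -3.53 in egg cells, and the log2 18S ribosomal RNA signal was 11.3 to 12.2 and 13.8 to 14.6. Their part in the differences from the egg cell was not tested. The log2 ratio of 3′ over 5′ control signals, a sign of RNA length, differed by 0.923 (exact permutation test, two-sided, p = 0.143; smallest p possible 0.0119), and by 0.576 without the third 1 hap array. The log2 18S signal differed by -1.27 (exact permutation p = 0.131), and by -1.72 without the second zygote array (exact permutation p = 0.0357, not adjusted). A free-text label field gives pollen at 1 hap, seedlings at 0 hap and sperm cells at 3 hap, against the titles, stage entries and protocols. The groups follow the latter.

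Defining genes were used to check the cell types. The list for egg cell and zygote held 4 genes, of which 3 were bright enough, all regulators that other tissues also use, so it cannot identify the cells. The homeobox gene OsWOX13, for example, had signals of 178.7, 315.6 and 210.1 at 1 hap. The egg arrays had 285, 251 and 244.5 and the zygote arrays 422.1, 456.2 and 302.3. On the log2 scale used below, 1 hap minus the mean of the flanking stages was -0.04 for GL2-3, -0.45 for OsWOX13 and -1.79 for OSH1. None of them passed the test described below. Genes of other tissues were also measured. The leaf gene CAB2R, a chlorophyll-binding protein of the light-harvesting complex, reached 13790, 10070 and 11450 at 1 hap, where the egg arrays had 9980, 16010 and 16660 and the zygote arrays 9624, 1201 and 10560. The lipid transfer gene LTPL1 of the ovule wall list had 9285, 10120 and 10300 at 1 hap. Summed over the 14 leaf genes kept, the signal at 1 hap (18280 to 25260) lay among the egg values (17710 to 27410). Over the 8 ovule wall genes it was 33800 to 40770 at 1 hap and 35260 to 54850 in egg cells. The summed signal of the 8 endosperm genes kept was 17060, 22500 and 44480 at 1 hap, the last being the highest of all arrays. Most of it came from 1 gene, GBSS-I, at 11890, 16440 and 35880 at 1 hap. This gene had 7239 to 14890 in egg cells and 8066 to 20630 in zygotes.

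Tested across all probe sets, the 1 hap stage was hard to tell from its neighbours. The contrast was the mean at 1 hap minus the mean of the 2 flanking stage means, on log2(signal + 15), so that a value of 1 is a doubling and dim probe sets are understated. With limma and a Benjamini-Hochberg adjusted p under 0.05, 0 probe sets were higher (0% of those tested) and 1 was lower (0.0035%). At an unadjusted p under 0.05 these counts were 1231 (4.3%) and 1074 (3.76%). When the noisier arrays counted less (array quality weights, between 0.181 for the second zygote array and 3.49 for the third egg array), limma called 21 probe sets higher (0.0734%) and 37 lower (0.129%). With the spike ratio (poly-A spikes, added to the RNA, over hybridization spikes) as a covariate it called 419 higher (1.47%) and 166 lower (0.58%), among them 137 of the peaks and 45 of the dips described next. This ratio averaged -3.93 in egg cells, -1.29 at 1 hap and -1.32 in zygotes, so it is largely confounded with stage. Its slope rests on the spread within stages, and whether these calls are free of it was not tested.

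A stricter pattern without a test asked for a one-hour peak: all 3 arrays at 1 hap above all 6 flanking arrays, and a 1 hap mean at least 1 log2 unit above both flanking means. A one-hour dip is its mirror image. There were 303 peaks (1.06% of the probe sets) and 243 dips (0.85%). The same pattern with the egg cell as the odd stage gave 402 peaks (1.41%) and 469 dips (1.64%), and with the zygote 527 (1.84%) and 334 (1.17%). The stage at 1 hap thus had the fewest of both. Without the step of 1 log2 unit, all 3 arrays lay above all others in 632 probe sets (2.21%) and below in 474 (1.66%). Taken against the egg cell alone, 8 of the peaks and dips passed the test (0.0035% of all probe sets passed as higher and 0.0385% as lower), and 191 did with array weights (4.36% of all passed in either direction). Against the zygote alone, 0 passed with either fit. Peaks and dips were chosen for their distance from both stages, so these counts describe them and are no further evidence. The filter on low values also bears on them: 42 of the 303 peaks had a flanking mean under it and were kept only through their 1 hap arrays, and 77 of the 243 dips had a 1 hap mean under it. The plot of differences from each flanking stage places peaks and dips among all probe sets.

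**Figure D1:**
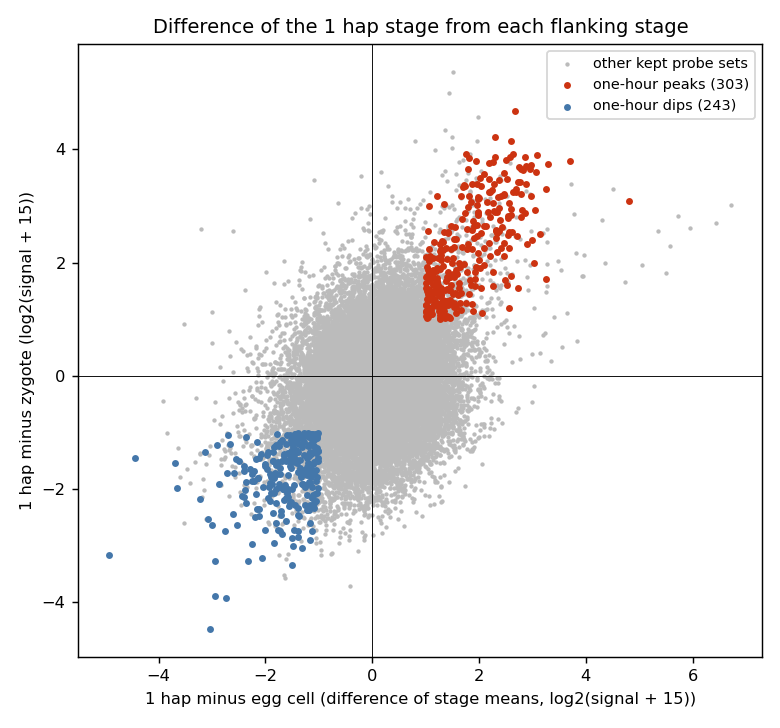
Each point is a probe set; the x axis is the 1 hap mean minus the egg cell mean and the y axis the 1 hap mean minus the zygote mean, both in log2(signal + 15), and the axes share the 1 hap arrays. The 303 one-hour peaks (red) lie beyond 1 on both axes and the 243 dips (blue) beyond -1, and many other probe sets at the same distance lack the separation of all arrays.

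The peaks came with a gene more often than the dips. Of the 303 peaks, 220 probe sets pair with exactly 1 gene (72.6%, against 63.1% of all kept) and cover 215 genes, 38 of the probe sets having an informative gene symbol. Of the 243 dips, 136 pair with 1 gene (56.0%) and 19 carry a symbol. Dips were also richer in probe sets whose probes can match several transcripts (31.7% against 19.8% of all kept and 13.5% of peaks). Both flanking stages were near each other for most members: zygote and egg means differed by less than 1 log2 unit in 244 peaks and 201 dips. The pattern asks both stages to lie on the same side of 1 hap, and the share over all kept probe sets was not counted. In 54 peaks the zygote was more than 1 unit below the egg cell, and in 5 more than 1 unit above.

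The only probe set that passed the test fell at 1 hap. It is OsAffx.32313.1.S1_x_at, for which the annotation used gives no gene. Its signal was 15990, 9375 and 14650 in the egg arrays, 437.3, 416.2 and 1076 at 1 hap, and 1984, 1485 and 1407 in the zygote arrays. Every 1 hap array lay below every flanking array, and egg and zygote levels did not overlap either. It fell by 2.94 ± 0.34 (log2, SE, n = 3 arrays per stage; limma, adjusted p = 0.0344). Most of this came from the egg side: 1 hap minus egg was -4.45 (limma, adjusted p = 0.00175) and 1 hap minus zygote was -1.44 (limma, adjusted p = 0.294). Leaving out single arrays gave values from -3.38 to -2.71, with limma adjusted p from 0.00801 to 0.511. A second probe set of the same number, OsAffx.32313.1.S1_at, had an estimate of -2.62 ± 0.37 (SE; limma, adjusted p = 0.0695).

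That probe set belongs to a block that was picked out only after these values were seen. The last 200 OsAffx serial numbers of the array, from 32151 to 32350, have 228 kept probe sets, of which 3 pair with a gene. They hold 21 dips (9.21%, against 0.85% of all kept probe sets and 0.582% of the other OsAffx probe sets). They also hold 4 peaks (1.75%, against 1.06% of all kept). Their median contrast was -0.85, and 192 of the 228 estimates (84.2%) were below 0, against 48.5% of all kept. With array weights, limma called 12 of them lower, against 37 of all 28597 kept probe sets (0.129%). The median signal of all 228 was 151.6, 133.9 and 227.2 at 1 hap, against 304, 378.5 and 235.4 in egg cells and 309.3, 414.3 and 271 in zygotes. All 3 values at 1 hap are below every flanking value, the third only just below that of the third egg array.

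Among the probe sets just outside the threshold are 2 loci without a symbol, named here after their values were seen. LOC4331855 stood at 2812, 3327 and 2453 in egg cells, 556, 606.7 and 743.8 at 1 hap, and 2433, 1995 and 2270 in zygotes. Its egg and zygote arrays lie close together, with the lowest egg array just above the highest zygote array, and all 1 hap arrays are far below them. The contrast was -1.97 ± 0.25 (SE; limma, adjusted p = 0.0568, and 0.00179 with array weights). LOC9267479 had the smallest p of all peaks, at 1233, 2798 and 1350 in egg cells, 14270, 16310 and 5733 at 1 hap, and 1642, 2314 and 2067 in zygotes. Its flanking stages overlap and every 1 hap array is well above them. The contrast was 2.58 ± 0.37 (SE; limma, adjusted p = 0.0695, and 0.00111 with weights).

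Among peaks with a gene symbol, JAZ7 had the smallest p. JAZ proteins repress jasmonate-responsive transcription and are degraded when the hormone is perceived, and their own genes are induced by jasmonate. The JAZ7 signal was 2089, 8701 and 3025 in egg cells, 24370, 21920 and 22940 at 1 hap, and 9324, 4937 and 6851 in zygotes. The 3 arrays at 1 hap were close to each other and well above the highest flanking array. The contrast was 2.18 ± 0.38 (SE; limma, adjusted p = 0.15, and 0.0221 with weights).

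The enzymes that make jasmonate gave smaller differences. Allene oxide cyclase (aoc), which forms the ring of the jasmonate precursor, had 4567, 11840 and 5470 in egg cells, 20740, 14300 and 17060 at 1 hap, and 7948, 3952 and 10490 in zygotes. It is a one-hour peak whose lowest 1 hap array is only a little above the second egg array, with a contrast of 1.34 ± 0.36 (SE; limma, adjusted p = 0.326). OG1, also known as OPR7, the reductase of the later peroxisomal step, had 13690, 12290 and 7459 at 1 hap against 2875 to 7761 in the flanking arrays, so 1 array overlapped. Its contrast was 1.30 ± 0.29 (SE; limma, adjusted p = 0.293, and 0.0295 with weights). Another repressor gene, JAZ3, had an estimate of 1.28 ± 0.30 (SE; limma, adjusted p = 0.293).

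The jasmonate list as a whole held 36 genes, 26 of them kept, and 0 passed limma's test in either direction with equal weights. At an unadjusted p under 0.05, 9 were higher and 1 lower (873 and 514 of all 15342 genes). Estimates were above 0 in 22 of 26, against 54.2% of all genes, and the list's median was 0.59, against 0.05. It held 2 peaks, JAZ7 and aoc (1.35% of all genes were peaks and 0.574% dips). With weights limma called 2 genes higher, JAZ7 and OG1 (0.0734% of all kept probe sets were called higher). The diterpenoid phytoalexin list, enzymes that make antimicrobial compounds, had a higher median of 1.46 with 10 of 11 kept genes above 0. With limma 0 passed in either direction, with or without weights (5 higher and 0 lower at an unadjusted p under 0.05). Its median zygote minus egg difference was 1.55, so the zygotes were also above the egg cells. This median was 0.85 with an offset of 64 and 0.73 without the third zygote array. Its peak was CYP701A8, a cytochrome P450, at 47.19, 49.98 and 78.9 in egg cells, 602.6, 379 and 1342 at 1 hap, and 51.23, 360.7 and 367.2 in zygotes. Zygote arrays 2 and 3 came close to the lowest 1 hap array, and the contrast was 2.48 ± 0.63 (SE; limma, adjusted p = 0.294).

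**Figure D2:**
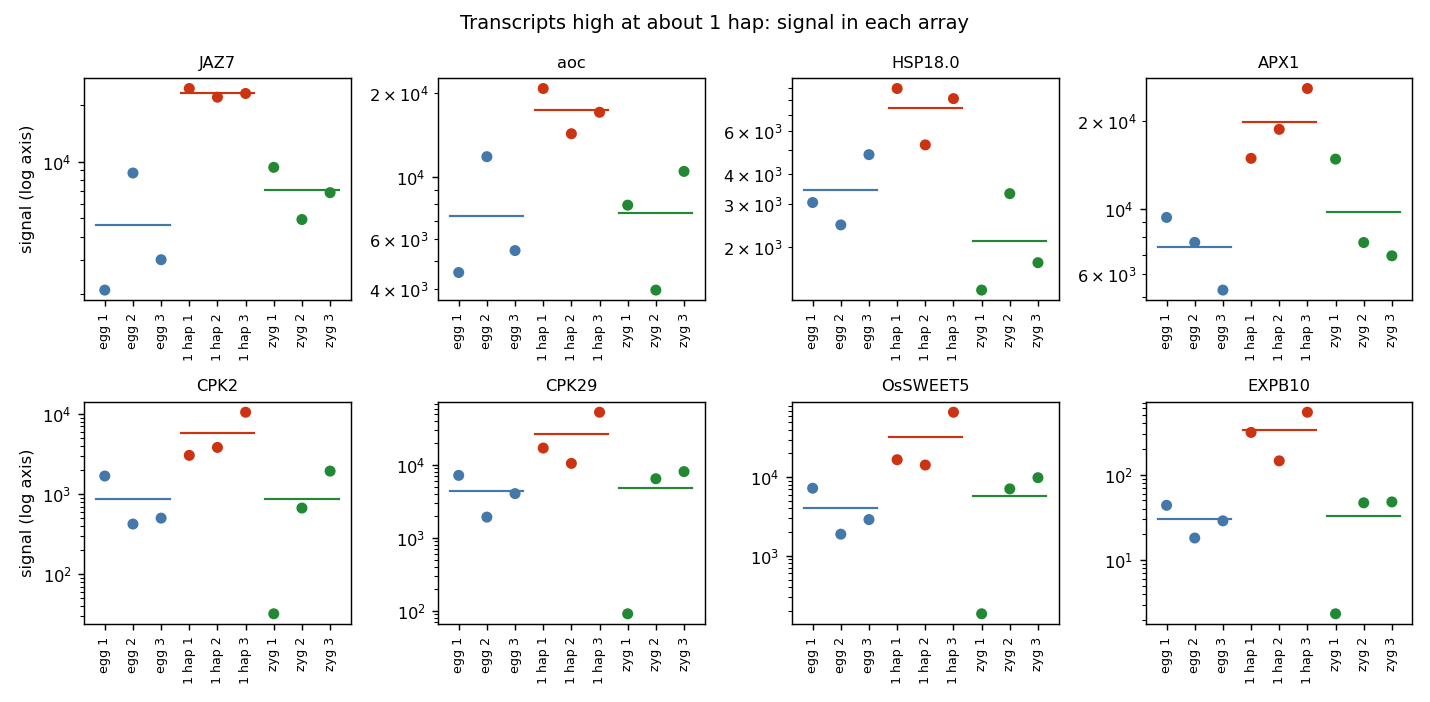
Signal (log axis) in each array for 8 genes that are one-hour peaks, with egg cell arrays in blue, 1 hap arrays in red, zygote arrays in green and horizontal lines at the stage means. JAZ7 holds 3 close values at 1 hap, while CPK2, CPK29, OsSWEET5 and EXPB10 are highest in the third 1 hap array and lowest in the first zygote array.

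Heat shock proteins, chaperones that bind unfolded proteins, included 4 peaks among 46 kept genes of 53, where 1.35% of all genes were peaks. With limma 0 passed the test in either direction, with or without weights, and 12 were higher and 1 lower at an unadjusted p under 0.05. Of all 15342 genes, 873 were higher and 514 lower at that p. HSP18.0 had 3050, 2469 and 4794 in egg cells, 8951, 5256 and 8136 at 1 hap, and 1334, 3317 and 1728 in zygotes. The lowest 1 hap array stood just above the third egg array, and the contrast was 1.50 ± 0.33 (SE; limma, adjusted p = 0.293). The other 2 probe sets kept for this gene gave 0.51 and 0.06, so its probe sets disagree. HSP26.2 had 2084, 2837 and 4241 at 1 hap and 708 to 1639 in the flanking arrays, with a contrast of 1.51 ± 0.34 (SE; limma, adjusted p = 0.293). The remaining peaks were HSP17.8 (2.00) and the heat shock factor HSF11 (2.58). A second probe set kept for HSF11 gave 0.99 and is no peak. A second heat factor, HSF07, ran the other way at -1.52 (limma, adjusted p = 0.335). The list's median was 0.58, with 30 of 46 above 0 (54.2% of all genes), but the median was 0.19 without the third 1 hap array.

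Enzymes that handle reactive oxygen and conjugate toxins were mixed. The redox list had 64 kept genes of 68, with 46 above 0, a median of 0.26, 3 peaks, 1 dip and 0 that passed limma's test in either direction (7 higher and 2 lower at an unadjusted p under 0.05). Over all 15342 genes, 54.2% were above 0, 1.35% were peaks and 0.574% dips, and 873 were higher and 514 lower at that p. With weights 1 was called in each direction, GST-II and GRXC3 (0.0734% of all kept probe sets were called higher and 0.129% lower). Ascorbate peroxidase APX1, which removes hydrogen peroxide, had 9364, 7699 and 5294 in egg cells, 14890, 18700 and 25760 at 1 hap, and 14800, 7690 and 6928 in zygotes. Its lowest 1 hap array is level with the first zygote array, and the contrast was 1.23 ± 0.30 (SE; limma, adjusted p = 0.293). The glutathione transferase GST-II, not a peak by the pattern, had 14330, 17940 and 18350 at 1 hap against 5182 to 11990 in the flanking arrays. All 1 hap arrays were above all others, its contrast was 1.16 ± 0.23 (SE; limma, adjusted p = 0.206), and limma with weights called it higher (adjusted p = 0.0295).

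The dip in that list was GRXC3, a glutaredoxin, at 168.5, 359.1 and 322.7 in egg cells, 84.28, 5.588 and 10.2 at 1 hap, and 134.6, 847.9 and 337.9 in zygotes. The 1 hap arrays are below all others but spread widely among themselves, with 2 of them under the offset. The contrast was -3.10 ± 0.68 (SE; limma, adjusted p = 0.293, and 0.0411 with weights).

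Other peaks with a symbol included single genes of signalling, the cytoskeleton and transport, several of them with the same brightest and dimmest array. CPK2, a calcium-dependent protein kinase, had 1682, 422.6 and 501.1 in egg cells, 3047, 3828 and 10540 at 1 hap, and 32.01, 669.9 and 1939 in zygotes. Its signal was highest in the third 1 hap array and lowest in the first zygote array, and the contrast was 3.21 ± 0.92 (SE; limma, adjusted p = 0.349). CPK29, of the same family, went from 90.7 in the first zygote array to 53390 in the third 1 hap array, around a contrast of 3.03 ± 1.11 (SE; limma, adjusted p = 0.483). CIPK5, a kinase that binds calcineurin B-like calcium sensors, ran from 351.8 to 50550 in the same arrays, and its contrast was 2.75 ± 0.78 (SE; limma, adjusted p = 0.348). With CPK21 these were the 4 peaks of the calcium list, of which 81 of 86 genes were kept, 50 were above 0 and the median was 0.10. With limma 0 passed in either direction, with or without weights (8 higher and 4 lower at an unadjusted p under 0.05). For all 15342 genes these counts were 873 and 514, 54.2% of all genes were above 0 and 1.35% were peaks.

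The sugar transporter OsSWEET5 had 7234, 1885 and 2891 in egg cells, 16660, 14260 and 66880 at 1 hap, and 183.6, 7096 and 9844 in zygotes. EXPB10, a β-expansin that loosens cell walls, had 43.85, 18.14 and 28.84 in egg cells, 313.4, 145.5 and 540.9 at 1 hap, and 2.347, 46.91 and 48.04 in zygotes. Both have the same highest and lowest array as CPK2. The mean of EXPB10 over the flanking stages was under the filter on low values, so it was kept only through its 1 hap arrays. Their contrasts were 3.13 ± 1.01 and 2.86 ± 0.64 (SE; limma, adjusted p = 0.408 and 0.293). The actin-depolymerizing factors ADF-1, ADF-6 and ADF-9, which sever actin filaments, were the 3 peaks among 72 kept cytoskeleton and traffic genes (median 0.05). Peaks made up 1.35% of all genes. In this list limma called 0 in either direction, with or without weights. At an unadjusted p under 0.05 the list had 5 higher and 0 lower, against 873 and 514 of all 15342 genes. ADF-1 had 1773, 711.3 and 1020 in egg cells, 2427, 2658 and 13220 at 1 hap, and 375.4, 217.2 and 1353 in zygotes, with a contrast of 2.58 ± 0.62 (SE; limma, adjusted p = 0.293).

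That pattern was then counted over the whole array, after it had been seen. Being brightest in the third 1 hap array and dimmest in the first zygote array applied to 936 of 28597 probe sets (3.27%) and to 140 of the 303 peaks (46.2%), 12 of them among the 38 peaks with a symbol. A peak is by its definition brightest in a 1 hap array and dimmest in a flanking array, which raises its share. Among the 6154 probe sets that meet this part of the definition, 936 (15.2%) had the order. Whatever the dimmest array, the third 1 hap array was the brightest in 230 of the 303 peaks (75.9%), 25 of them with a symbol. It was the brightest in 13.6% of all kept probe sets. The first 1 hap array was the brightest in 59 peaks and the second in 14. The 12 are CPK2, CPK29, CIPK5, ADF-6, ADF-9, EXPB10, OsSWEET5, OsTIP2 (an aquaporin of the vacuole membrane), AldC-alpha (an aldolase of glycolysis), OsTrx20 (a thioredoxin), HSF11 and ARF13 (an auxin response factor). The median signal of the 140 was 2010, 2154 and 8608 at 1 hap, 1309, 615.9 and 649.4 in egg cells, and 81.7, 1033 and 1178 in zygotes. In zygote arrays 2 and 3 they were thus about level with the first egg array, and in the first zygote array far below all others. The median of the remaining 163 peaks was 689.6, 553.9 and 859.7 at 1 hap and 123.7 to 284.9 in the flanking arrays.

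Pollen uses β-expansins, actin-depolymerizing factors and calcium-dependent kinases heavily, as background, and the stray label field names pollen at 1 hap. The list of anther and pollen genes had 11 members, 5 of them kept, and consists of genes of anther development rather than of ripe pollen. Its summed signal was 9526, 10640 and 8859 at 1 hap, against 5955 to 6642 in egg cells and 5191 to 8072 in zygotes. The largest part was MTR1, a regulator of microspore and tapetum development and itself a peak, at 5741, 7328 and 6282 at 1 hap and 2216 to 3873 in the flanking arrays. Its contrast was 1.08 ± 0.25 (SE; limma, adjusted p = 0.293, and 0.0401 with weights). GAM1 and MSP1, the next brightest, had contrasts of -0.13 and 0.08. The part of RNA from pollen or from single arrays in these values was not tested.

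**Figure D3:**
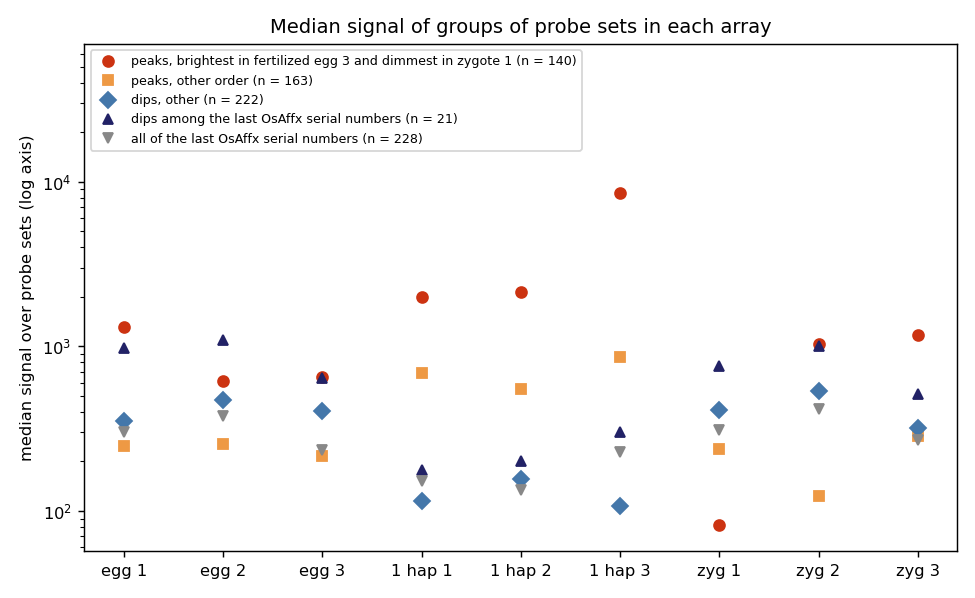
Median signal (log axis) in each of the 9 arrays, over the 140 peaks that are brightest in the third 1 hap array and dimmest in the first zygote array, the other 163 peaks, the 21 and 222 dips inside and outside the last OsAffx serial numbers, and all 228 probe sets of those numbers. The 140 peaks reach 8608 in the third 1 hap array and 81.7 in the first zygote array, whereas the other peaks and the dips are more even within each stage.

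The dips with a symbol were led by ADC1, arginine decarboxylase, an entry enzyme of polyamine synthesis. It had 1025, 1555 and 2226 in egg cells, 204.3, 351.9 and 410.6 at 1 hap, and 1426, 932.4 and 897.7 in zygotes. All 1 hap arrays were clearly below all flanking arrays, and the contrast was -1.99 ± 0.36 (SE; limma, adjusted p = 0.184, and 0.0479 with weights). A brighter probe set of ADC1, however, had signals of 11790 to 17320 at 1 hap and an estimate of 0.05, so the gene's probe sets disagree.

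IAA10, an Aux/IAA repressor of auxin response, had 710, 1203 and 717.7 in egg cells, 285, 241.8 and 274.6 at 1 hap, and 782.4, 2568 and 2218 in zygotes. The 1 hap arrays lay close together and below the rest, with a contrast of -2.09 ± 0.40 (SE; limma, adjusted p = 0.188, and 0.016 with weights). In the auxin list 52 of 67 genes were kept, 33 were below 0, the median was -0.20, and it held 1 dip (IAA10) and 1 peak (ARF13). With limma 0 passed in either direction (4 higher and 5 lower at an unadjusted p under 0.05). With weights 1 was lower, IAA10 (0.129% of all kept probe sets were called lower). Among all 15342 genes, 873 were higher and 514 lower at an unadjusted p under 0.05. Of them 54.2% were above 0, 1.35% were peaks and 0.574% dips. ILL2, which releases auxin from amino acid conjugates, had an estimate of 2.87 ± 0.69 (SE; limma, adjusted p = 0.293) and its highest signal, 9055, in the third 1 hap array.

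OsPP2C45, a type 2C protein phosphatase, had 86.75, 761.2 and 515.3 in egg cells, 4.007, 60.93 and 37.49 at 1 hap, and 1993, 526.3 and 739.3 in zygotes. The first egg array was not far above the 1 hap arrays, and the contrast was -3.75 ± 0.71 (SE; limma, adjusted p = 0.188). A second, brighter probe set gave -0.32. MYBS1, a MYB factor that acts on α-amylase genes in response to sugar, had 156.2, 325.5 and 239.9 in egg cells, 5.485, 66.57 and 83.7 at 1 hap, and 200.4, 329.6 and 276.4 in zygotes, with no overlap. Its contrast was -2.25 ± 0.58 (SE; limma, adjusted p = 0.301).

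The metallothionein MT2C, a small cysteine-rich protein that binds metals, was read by 5 kept probe sets, and 3 of them were dips. The brightest had 11440, 30700 and 15010 in egg cells, 11050, 8549 and 6592 at 1 hap, and 12090, 25990 and 31710 in zygotes. The first 1 hap array was barely below the first egg array. Its contrast was -1.18 ± 0.37 (SE; limma, adjusted p = 0.386), and the other 4 probe sets gave -1.05 to -1.29. A probe set with the symbol MT-2, named here after its values were seen, was a one-hour peak (limma, unadjusted p = 0.00563). The iron-nicotianamine transporter family member osysl12 had 2227, 1542 and 1123 at 1 hap, 2909 to 5108 in egg cells, and 3334, 28850 and 17210 in zygotes. Its contrast was -2.03 ± 0.54 (SE; limma, adjusted p = 0.323, and 0.0428 with weights), and 1 hap differed more from the zygote (-2.90) than from the egg cell (-1.16).

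**Figure D4:**
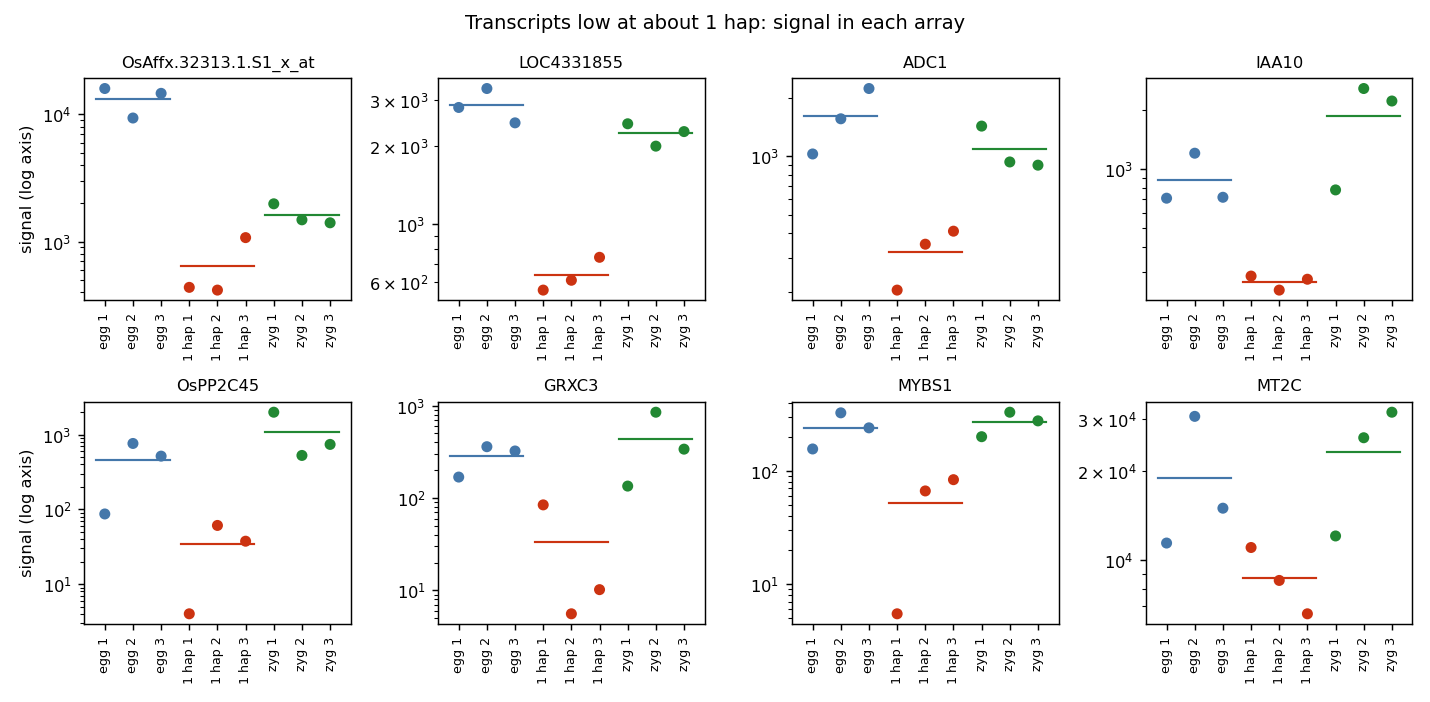
Signal (log axis) in each array for 8 probe sets that are one-hour dips, coloured by stage as in the plot of peaks, with lines at the stage means. LOC4331855 and IAA10 hold 3 close values at 1 hap below all flanking arrays, while in OsPP2C45, GRXC3 and MYBS1 at least 1 of the 1 hap arrays is near 0.

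Other lists held at most 2 peaks or 1 dip each (1.35% of all genes were peaks and 0.574% dips), and limma called 0 of their genes in either direction. At an unadjusted p under 0.05, 0 to 6 genes per list and direction were counted (873 higher and 514 lower of all 15342 genes). These were 5 higher and 5 lower of 25 chitinases and pathogenesis-related proteins. They were 6 and 4 of 89 in the abscisic acid list, and 6 and 2 of 51 MYB, NAC and other factors. With weights limma called osysl12 lower and PBZ1, a pathogenesis-related gene, higher (0.129% and 0.0734% of all kept probe sets). Transporters (84 kept, median 0.09) had the peaks OsSWEET5 and OsTIP2 and the dip osysl12. A second probe set kept for OsTIP2 gave 1.07 and is no peak. The abscisic acid list (89 kept, median 0.20) had the peaks ABF2, a bZIP factor, and OsPP2C75. Other probe sets kept for OsPP2C75 gave 0.26 and 0.67 and are no peaks. Sugar and starch metabolism (27 kept, median 0.21) had AldC-alpha, the cell wall list (41 kept, median 0.19) had EXPB10, ethylene and cytokinin (36 kept, median -0.01) had the response regulator OsRR9 (kept only through its 1 hap arrays), and phenylpropanoid synthesis (13 kept, median 0.07) had 4CL5. The dips were Chia1d among 25 chitinases and pathogenesis-related proteins (median 0.11), MYBS1 among 51 MYB, NAC and other factors (median 0.13), and OSH1 among 36 homeobox and embryo regulators (median 0.07).

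Lists of core cell functions held no peak or dip and no gene called by limma, with or without weights. In them 0 to 3 genes per list and direction had an unadjusted p under 0.05 (873 higher and 514 lower of all 15342 genes). The 21 cytosolic ribosomal protein genes were all above 0 (54.2% of all genes were), with a median of 0.26. Their median zygote minus egg difference was 0.57. RPL10A had 22740, 22850 and 29530 at 1 hap, against 12800 to 15350 in egg cells and 17720 to 24430 in zygotes, and an estimate of 0.58 ± 0.21 (SE; limma, adjusted p = 0.481). The other lists without a peak or dip were translation factors (9, median 0.24), the proteasome and ubiquitin (17, median 0.17), DNA replication (27, median 0.10), the cell cycle (42, median 0.03), histones and chromatin (11, median 0.00), DNA methylation and small RNA (23, median 0.01), MADS-box factors (23, median 0.04) and WRKY factors (6, median 0.05).

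**Figure D5:**
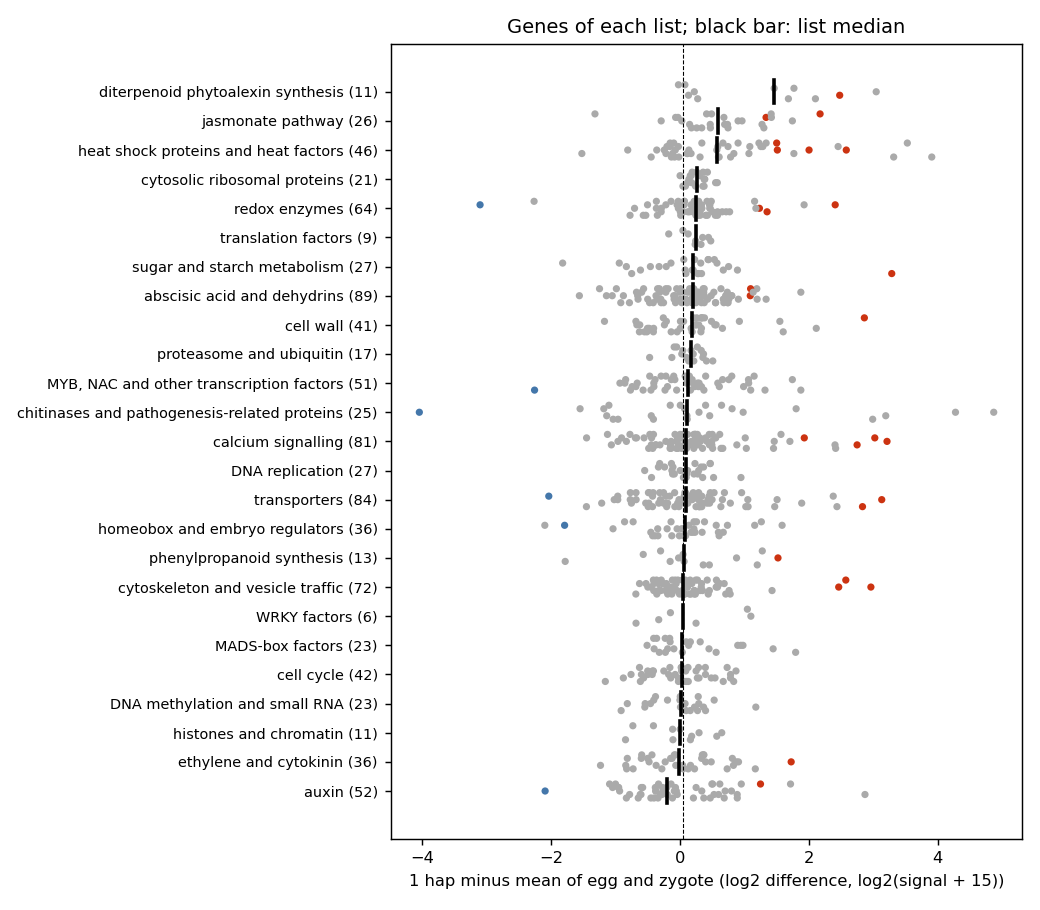
Contrast estimate (1 hap minus the mean of both flanking stages, log2 scale) for every kept gene of 25 lists, with the number of genes in brackets, one-hour peaks in red, dips in blue and list medians as black bars; the dashed line is the median of all genes (0.05). The diterpenoid, jasmonate and heat shock lists have the highest medians (1.46, 0.59 and 0.58) and auxin the lowest (-0.20).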

How the data were processed

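The deposited values are linear intensity, 1 per probe set in each array, from MAS5 (per the submitters' processing notes; version not given in the sources used here). Each array's mean after trimming 2% at either end was 500.1, so a difference is relative to the array's total. Of 57381 probe sets, 123 Affymetrix controls and 64 reporters were left out. Values became log2(signal + 15), and the brighter 50% of rice probe sets by mean were kept. No other normalization was applied. limma 3.58.1 (R 4.3.3; lmFit, eBayes with trend) was fitted on all 9 arrays, with p-values adjusted over all kept probe sets by Benjamini-Hochberg at 0.05. It was tested on simulated data. Python 3.11.15, pandas 2.3.3 and matplotlib 3.10.9 were used for tables and plots. The number of arrays limits the precision.

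A probe annotation gave 1 gene for 22436 rice probe sets, several for 95 and none for 34663. Symbols came from the RefSeq table of assembly ASM3414082v1 (all 17905 genes matched, 2457 with an informative symbol). Coordinates and sequences are not used here. A gene list uses each gene's brightest kept probe set.

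The genes named are probe sets past the threshold, up to 15 peaks and 15 dips with a symbol and the smallest p, up to 3 genes per list with the smallest p, up to 10 per direction called with weights, and the 3 brightest genes of each marker list. List members that are peaks or dips, and loci without a symbol, were named after their values were seen. The members and lists were chosen with earlier results of these data known. Replicate numbers did not pair the arrays: deviations of same-numbered arrays from their stage means correlated between -0.224 and 0.138. Alternatives were other offsets, filters, normalization and models, array weights, and leaving out arrays.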

Additional observations from a re-analysis of the deposited data

How the results depend on the processing

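The count of probe sets called by limma at 1 hap (0 higher, 1 lower) was 0 and 0 with an offset of 1, quantile normalization or eBayes without trend. It was also 0 and 0 with a fit of 1 hap against the other 6 arrays as one group, or with the replicate block, which groups arrays by replicate number. It was 0 and 1 with an offset of 64, 1 and 3 without a filter, 0 and 2 with a filter at the 75th percentile, 1 and 4 with robust eBayes, 21 and 37 with array weights, and 419 and 166 with the spike ratio as a covariate. Leaving out single arrays gave 0 to 4 higher and 0 to 6 lower. Without both the second zygote and the third 1 hap array, an alternative chosen after seeing the data, it was 1 and 3. Peaks (303) and dips (243) numbered 233 and 146 with an offset of 64, 465 and 333 without a filter, 195 and 107 with a filter at the 75th percentile, 88 and 24 with a step of 2 log2 units (also chosen after seeing the data), 441 and 555 without both arrays, and 286 to 619 and 227 to 566 without single arrays. A pattern that asks for separation of all arrays is met more easily with fewer of them, and the cause of other shifts was not tested. Without the second 1 hap array there were 619 peaks and 566 dips, and without the second zygote array 514 and 381. With array weights, 191 of the peaks and dips passed for 1 hap minus egg (background 4.36%), against 8 with equal weights, and 0 for 1 hap minus zygote under either. Among 118 named probe sets, only OsWRKY62 changed direction, from -0.68 to a range of -1.48 to 0.0102 without single arrays. Of the array controls, the 3′ over 5′ difference (0.923) ranged from 0.576 to 1.36, the spike ratio (1.34) from 1.02 to 1.89, the hybridization spike difference (-0.277) from -0.998 to 0.407, the median rice signal (0) from -0.264 to 0.345 and 18S from -1.72 to -0.98 without single arrays.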

Other observations

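Some genes were high at 1 hap and in most zygote arrays, and so are no one-hour peaks. The chitinase gene Cht4, whose product degrades chitin of fungal walls, had 31, 74.82 and 20.79 in egg cells, 2420, 4529 and 15850 at 1 hap, and 4.616, 3711 and 4529 in zygotes. Zygote arrays 2 and 3 lay within the 1 hap range, and the first lay below the egg cells. In the chitinase chia4a the third zygote array lay just below the 1 hap range, at 128.9, 45 and 69.28 in egg cells, 4912, 2747 and 12460 at 1 hap, and 33.85, 6216 and 2430 in zygotes. The contrasts were 4.87 ± 1.37 and 4.28 ± 1.15 (SE; limma, adjusted p = 0.347 and 0.328), larger than that of any peak named above. PBZ1, a pathogenesis-related gene, had 338.2, 134.9 and 164.6 in egg cells, 3100, 4310 and 13140 at 1 hap, and 310.8, 8245 and 2065 in zygotes, and limma with weights called it higher (3.20 ± 0.80 with equal weights; adjusted p = 0.293, and 0.0295 with weights).

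The β-expansin EXPB9 was among the brightest of the genes named, at 39220, 25730 and 101500 at 1 hap. It had 21210, 11020 and 11550 in egg cells, and 838.5, 24140 and 28280 in zygotes. It has the same brightest and dimmest array as EXPB10, but the third zygote array exceeds the second 1 hap array, so it is no peak.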
